A study of Mus musculus with 22 samples.

Results

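The genes described here make, sense, move and export cholesterol. They were taken as a list of 34 gene symbols, 18 of them enzymes of cholesterol synthesis, and the list used no measured value. Earlier results of these data were known when the list was chosen. The arrays held a probe set for 31 of the 34, out of 18193 genes with a probe set in all, and the 31 were represented by 65 probe sets. Acat2, Nr1h2 and Soat1 were named by no probe set in the annotation used and are not analysed here.

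Messenger RNA of 22 mouse samples was measured on Affymetrix arrays. Of these, 6 came from A2C12, a line grown from a lung tumour of a double transgenic mouse with c-myc and c-raf transgenes on a C57BL/6 background. The cells were cultured in medium with foetal calf serum, and the side population was sorted by flow cytometry. A side population is the small fraction of cells that keeps the DNA dye Hoechst out. The untreated group was 3 such preparations. The antibody group was 3 preparations from cells exposed to a monoclonal antibody against mouse EpCAM, an epithelial adhesion protein, at 100 µg/ml for 48 h before the sort. The comparison tissue was whole lung from C57BL/6 mice without the transgenes, with no age given, of which 8 were labelled as male and 8 as female. All cell samples carry the 2 transgenes and come from 1 line, and no unsorted A2C12 cells are analysed here, so a difference from lung cannot be assigned to the side population, to the transgenes or to culture. The labels call the samples of a group biological replicates, without saying for the cells what was repeated.

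Cholesterol is made from acetyl-CoA through mevalonate, farnesyl diphosphate, squalene and lanosterol. SREBP-2, the product of Srebf2, switches on the enzymes of this pathway when sterols in the endoplasmic reticulum are low. Scap carries SREBP to the Golgi for cleavage, and Insig1 and Insig2 hold Scap back when sterols are high. Liver X receptors, which include the product of Nr1h3, respond to oxysterols and raise export through Abca1, Abcg1 and Apoe. In lung, alveolar macrophages and alveolar type 2 cells handle much of the lipid, since surfactant is made, taken up and cleared there.

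Promoters of the synthesis genes are known for sites of SREBP and its partner factors, and their sequences are shown because most of these genes were higher together in the cells. RefSeq (GRCm38.p6) windows from 250 bases before to 50 bases after a gene start were found for 27 of the 34 genes. Both strands were searched for the letters TCACNCCAC of a sterol regulatory element, for CCAAT, for the GC box GGGCGG and for the E-box CACGTG. The sterol element was found in 1 of the 27 genes, Hmgcs1, and in 1.44% of all genes with a window (1.24% of windows). Hmgcs1 was not called in untreated cells against lung by the probe set chosen. Its other probe sets past the filter were called higher, with log2 differences of 1.19, 1.06 and 1.40. None of the 8 genes called higher with a window held the letters TCACNCCAC. Sites with other letters were not searched, so a missing match does not show that a gene lacks a sterol element. CCAAT was found in 21 of the 27 genes and in 41.1% of all genes (37.4% of windows). It was found in 14 of the 14 measured synthesis genes with a window and, by direction in untreated cells against lung, in 8 of 8 genes higher, 10 of 11 not called and 2 of 5 lower, Mylip and Npc2. The GC box was found in 23 of the 27 genes and in 38.2% of all genes (35.7% of windows), and the E-box in 6 of the 27 and in 8.09% (7.15%). These are matches of letters and carry no test. The 250 bases before the start are printed 5′ to 3′ for 5 genes picked after their values were seen. Hmgcs1 holds the sterol element. Cyp51, Msmo1 and Hsd17b7 were higher in the cells, and Nr1h3 was lower. Capitals mark the sterol element and CCAAT, which reads ATTGG on the other strand.

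Hmgcs1 (chr13:119690101-119690350, + strand): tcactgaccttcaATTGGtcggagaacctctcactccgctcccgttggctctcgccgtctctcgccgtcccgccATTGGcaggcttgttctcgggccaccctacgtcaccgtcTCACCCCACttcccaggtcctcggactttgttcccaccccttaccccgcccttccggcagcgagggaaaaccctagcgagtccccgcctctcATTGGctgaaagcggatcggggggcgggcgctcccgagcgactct
Cyp51 (chr5:4104698-4104947, - strand): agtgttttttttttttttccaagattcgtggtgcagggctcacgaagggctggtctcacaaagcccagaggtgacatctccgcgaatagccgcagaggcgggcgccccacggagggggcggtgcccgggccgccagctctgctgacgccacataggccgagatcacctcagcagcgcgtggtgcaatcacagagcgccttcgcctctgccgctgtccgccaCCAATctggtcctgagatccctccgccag
Msmo1 (chr8:64733579-64733828, - strand): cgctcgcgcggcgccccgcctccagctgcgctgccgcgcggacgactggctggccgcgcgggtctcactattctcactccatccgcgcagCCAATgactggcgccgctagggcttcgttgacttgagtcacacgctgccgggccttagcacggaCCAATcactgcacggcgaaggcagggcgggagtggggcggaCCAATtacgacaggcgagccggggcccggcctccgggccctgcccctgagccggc
Hsd17b7 (chr1:169969206-169969455, - strand): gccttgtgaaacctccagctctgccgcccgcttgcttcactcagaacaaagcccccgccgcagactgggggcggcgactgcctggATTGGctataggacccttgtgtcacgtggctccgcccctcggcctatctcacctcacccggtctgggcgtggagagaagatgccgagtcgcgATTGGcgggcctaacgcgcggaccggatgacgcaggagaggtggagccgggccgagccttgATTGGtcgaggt
Nr1h3 (chr2:91195036-91195285, - strand): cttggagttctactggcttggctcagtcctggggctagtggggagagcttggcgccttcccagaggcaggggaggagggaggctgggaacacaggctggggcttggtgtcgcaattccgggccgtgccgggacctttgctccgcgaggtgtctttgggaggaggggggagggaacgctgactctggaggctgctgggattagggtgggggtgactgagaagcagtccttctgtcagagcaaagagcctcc

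In Hmgcs1 the sterol element starts 137 bases before the gene start, and CCAAT matches start 237, 176 and 45 bases before it. Cyp51 holds 1 CCAAT, 29 bases before the start, and Msmo1 holds 3, at 160, 96 and 55 bases. Hsd17b7 holds 3 on the other strand, at 165, 73 and 12 bases. The Nr1h3 window shown and its second window hold none of the 4 motifs.

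Values are probe set intensities on a linear scale. Intensities of different genes are not compared, because probe sets differ in brightness. A log2 difference is the difference between group means of log2(intensity + 16) after quantile normalization, with the standard error (SE) of the limma model. For cells against lung, a gene was called when its Benjamini-Hochberg adjusted p was below 0.05 and the difference was at least 2-fold. For the other comparisons the adjusted p alone decided. Replicate arrays of a group correlated across genes at no less than 0.966. The median intensity was 39.4 to 40.7 on the cell arrays and 47.9 to 54.6 on the lung arrays. The labelling control dap3 also differed. It read 366 to 601 on arrays of cells and no more than 2.72 on arrays of lung, and the 3′ over 5′ signal of Gapdh on the log2 scale, a sign of RNA quality, was -0.13 to 0.40 on cells and 0.22 to 1.02 on lung. Array processing, RNA quality and the cell-against-lung contrast cannot be told apart. Of the lung arrays, male 3 and male 4 went against their labels. Their Xist intensities were 1512 and 1583, within the 1225 to 1951 of the female-labelled arrays, while the other male-labelled arrays read 12.7 to 24.0. Uty on the Y chromosome was at most 9.46 on both. Counts of genes called against lung and between the sexes were also taken without these arrays. Lung ranges, medians and spreads are of all 16 lung arrays unless stated.

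Untreated sorted cells were compared with lung because the study set this tumour cell fraction against normal tissue. The cells carried more transcript of most enzymes that turn farnesyl diphosphate into cholesterol, and far less of the exporters Abcg1 and Apoe and of lipoprotein lipase. The synthesis genes called ranged from 2.08-fold higher for Ebp to 5.72-fold for Cyp51, and Apoe was 44.9-fold lower on the log2(intensity + 16) scale. Of the 31 measured genes, all of which passed the intensity filter, 11 were called higher, 8 lower and 12 not called. Among all 15197 genes tested, 17.8% were called higher and 23.8% lower. The 17 synthesis genes gave 10 higher, none lower and 17 positive differences, with a median log2 difference of 1.38 against 0.01 over all genes, of which 50.3% had a positive difference. The other 14 genes gave 1 higher, Insig1, and 8 lower, with a median of -1.19. On the normalized scale, in 16 of the 31 genes every untreated array was above every lung array, as for 32.2% of all genes, and in 9 every untreated array was below, as for 33.7%. Without male 3 and male 4, 12 genes were higher and 8 lower. Without untreated replicate 2 the call on Ebp was lost, and without untreated replicate 3 that on Insig1, which left 10 higher each time.

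**Figure D1:**
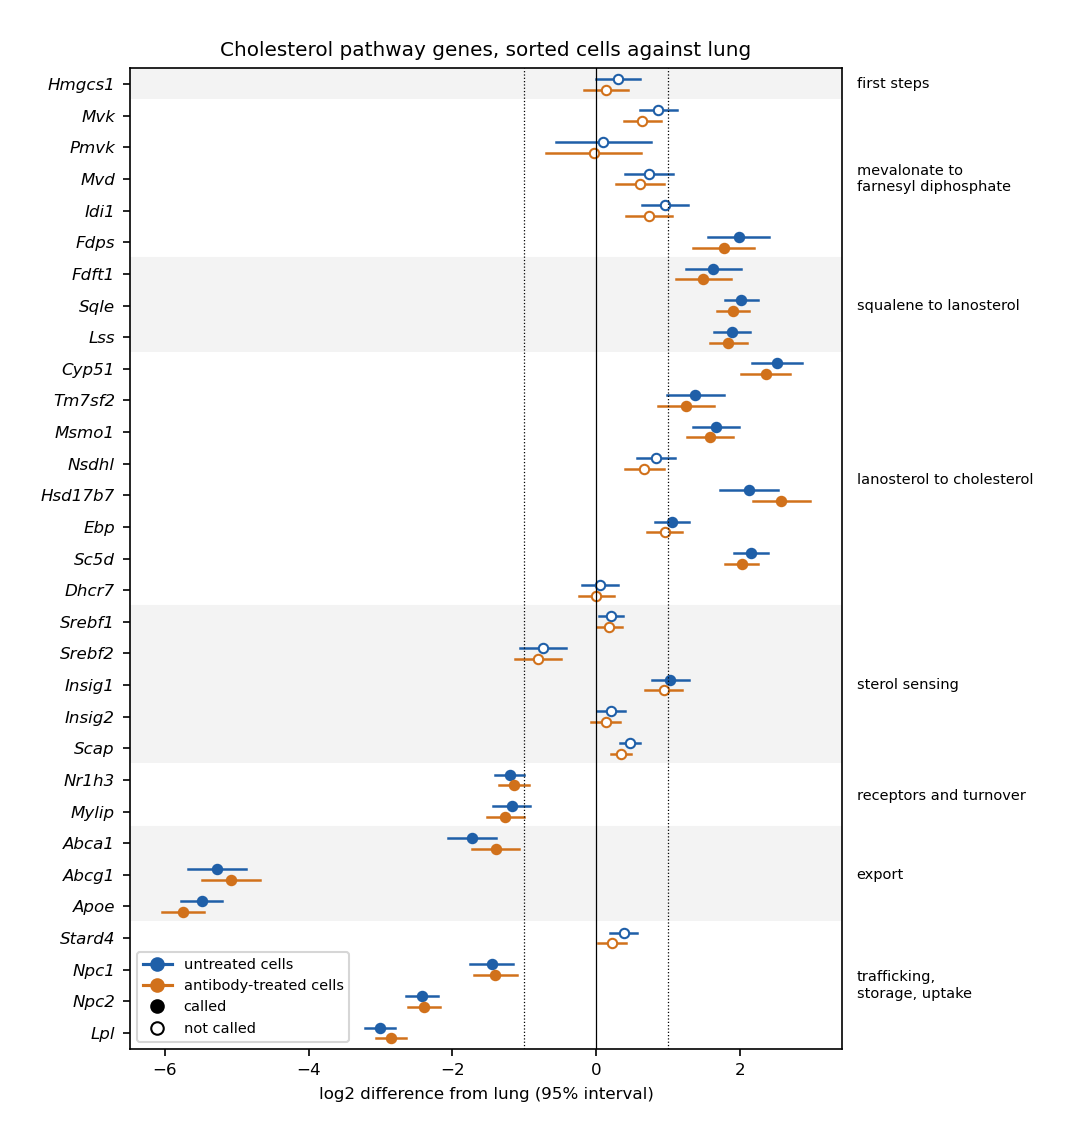
Log2 difference from lung (x axis, with 95% interval) of each of the 31 measured genes (y axis, grouped by role) in untreated (blue) and antibody-treated (orange) cells. Filled points were called, and dotted lines mark 2-fold. Filled points of the synthesis genes lie to the right of 0 and those of the export genes to the left, down to -5.49 for Apoe in untreated cells.

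Of the 6 measured enzymes from acetyl-CoA to farnesyl diphosphate, 1 was called higher by the probe set chosen, where 17.8% of all genes were. By other probe sets, given below, Hmgcs1 and Idi1 were called higher too. Hmgcs1 makes HMG-CoA. It read 1670, 1745 and 1953 on the untreated arrays, and 934 to 1919 with a median of 1429 on the lung arrays, so the groups overlapped. Its log2 difference was 0.31 ± 0.15 (SE; limma adjusted p = 0.0593). Fdps, which makes farnesyl diphosphate, was the only one of the next 5 enzymes called. It read 2310, 2520 and 1771 in untreated cells and 357 to 897 with a median of 530 in lung, with no overlap and a log2 difference of 1.98 ± 0.21 (limma adjusted p = 4.41e-09).

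Idi1 and Mvk lay just below the 2-fold line with adjusted p below the threshold. Idi1, the isomerase before Fdps, read 1104, 1318 and 1565 against 328 to 858 with a median of 690 in lung, a log2 difference of 0.96 ± 0.16. Without male 3 and male 4 it was called. Mevalonate kinase, Mvk, read 164, 198 and 190 against 92.1 to 138 with a median of 115, a log2 difference of 0.87 ± 0.12. All 3 untreated arrays were above all 16 lung arrays for both genes. Mvd, the decarboxylase, differed by 0.74 ± 0.16 on the log2 scale, and its groups were separate on the normalized scale but not in raw intensity. Pmvk, the second kinase, differed by 0.10 ± 0.32, with 95% limits of -0.56 and 0.76, and its lung arrays alone spread from 122 to 712. Without normalization its difference was -0.056.

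All 3 enzymes from farnesyl diphosphate to lanosterol were called higher. Squalene synthase, Fdft1, read 1336, 1345 and 1150 in untreated cells and 255 to 607 with a median of 414 in lung. Squalene epoxidase, Sqle, a rate-limiting step, read 2460, 2283 and 2476 against 411 to 671 with a median of 575. Lanosterol synthase, Lss, read 396, 409 and 416 against 75.6 to 134 with a median of 115. None of these groups overlapped. The log2 differences were 1.63 ± 0.19 for Fdft1, 2.02 ± 0.11 for Sqle and 1.89 ± 0.12 for Lss (limma adjusted p = 2.13e-08, 3.08e-14 and 7.42e-13).

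Of the 8 enzymes that turn lanosterol into cholesterol, 6 were called higher. Cyp51 removes the first methyl group of lanosterol and had the highest difference of all 31 genes. It read 1221, 1472 and 1540 in untreated cells and 124 to 324 with a median of 249 in lung, a log2 difference of 2.52 ± 0.17 (limma adjusted p = 1.25e-12). Sc5d, the lathosterol desaturase, read 1430, 1343 and 1348 against 200 to 385 with a median of 312. Hsd17b7, a ketoreductase of the pathway, read 171, 346 and 279 against 36.2 to 97.2 with a median of 52.3. Both groups were separate from lung, with log2 differences of 2.15 ± 0.11 and 2.12 ± 0.19.

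Msmo1, the sterol methyl oxidase, differed by 1.66 ± 0.16 on the log2 scale, Tm7sf2, a sterol reductase, by 1.38 ± 0.19 and Ebp, the sterol isomerase, by 1.05 ± 0.12. Tm7sf2 lost its call with an offset of 64 in place of 16, and Msmo1 with its probe sets averaged (0.48). Nsdhl, a sterol dehydrogenase of the same steps, differed by 0.83 ± 0.13, and its groups overlapped on the normalized scale but not in raw intensity. Dhcr7, the last reductase of the branch, read 106 to 118 in untreated cells and 110 to 182 in lung. Its log2 difference was 0.05 ± 0.12, with 95% limits of -0.20 and 0.30, and it turned to -0.24 without normalization.

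**Figure D2:**
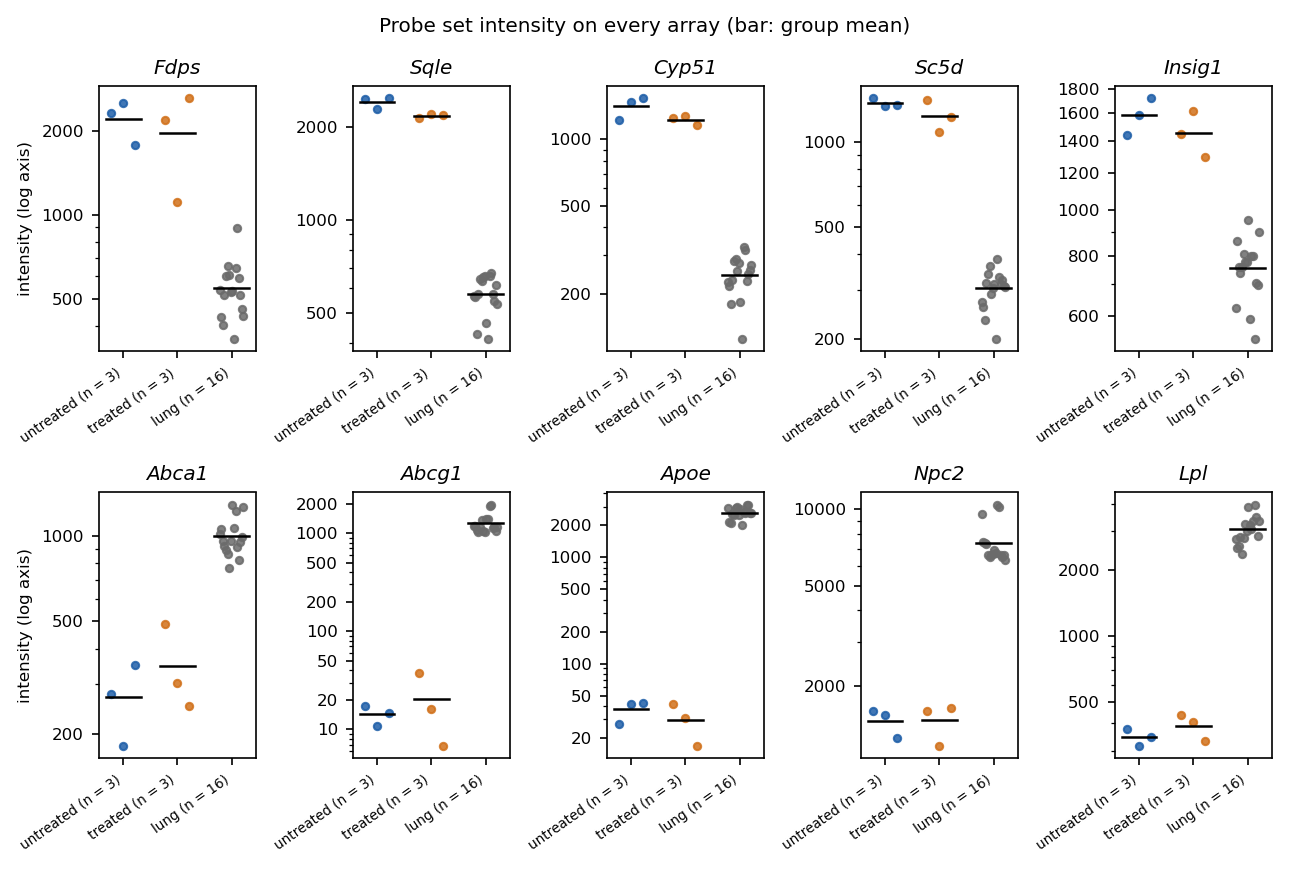
Intensity (log axis) on every array for 10 genes in untreated cells, antibody-treated cells and lung, with a bar at the group mean. For the 5 genes of the upper row the 6 cell arrays lie above all 16 lung arrays, and for the 5 of the lower row below them.

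Of the 5 genes of sterol sensing, 1 was called by the probe set chosen, and it was higher, as were 17.8% of all genes. Insig1, which retains Scap in the endoplasmic reticulum, read 1442, 1588 and 1723 in untreated cells and 535 to 956 with a median of 769 in lung. It was higher, at 1.03 ± 0.13 on the log2 scale (limma adjusted p = 6.98e-08), and lost the call with an offset of 64 and with the replicate number as a block. Its paralog Insig2 differed by 0.20 ± 0.10 with overlapping groups. Scap read 1097, 1251 and 1141 against 708 to 932 with a median of 822, a log2 difference of 0.47 ± 0.07 without overlap. Srebf1, whose product drives fatty acid synthesis, differed by 0.20 ± 0.08.

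Srebf2 went the opposite way to the enzymes its product switches on, by the probe set chosen. It read 282, 296 and 244 in untreated cells and 397 to 714 with a median of 508 in lung, a log2 difference of -0.74 ± 0.15 below the 2-fold line. A second Srebf2 probe set was brighter in the untreated cells, at 717 ± 102 (SD, n = 3), than in lung, at 286 ± 76.2 (SD, n = 16). Its log2 difference was 1.38 ± 0.17, which was called higher when every probe set was tested. The mean of both gave 0.32, so these arrays do not settle the direction of Srebf2.

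The other genes with several probe sets are described by the fit in which every probe set was a feature of its own. Hmgcs1 had 3 further probe sets past the filter, and all were called higher in untreated cells, with log2 differences of 1.19, 1.06 and 1.40 against 0.31 for the one chosen. Stard4 gave 0.38 by the chosen probe set and 1.75 and -0.84 by the others. Msmo1 gave 1.66 by the chosen probe set and -0.70 by a dim one, which read 30.4 ± 6.2 (SD, n = 16) in lung. Insig2 gave 0.20 by the chosen probe set, 0.65, and 1.03, which was called higher. Sc5d gave 2.15 by the chosen probe set, 1.45, and 0.57, which was not called. Idi1 gave 0.96 by the chosen probe set and 1.26, which was called higher. The log2 differences of Lss were 1.89, 1.12 and 2.55 and those of Abcg1 -5.27 and -2.79, all called. In the other 8 of the 17 genes with several probe sets past the filter, the calls were the same for every probe set.

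**Figure D3:**
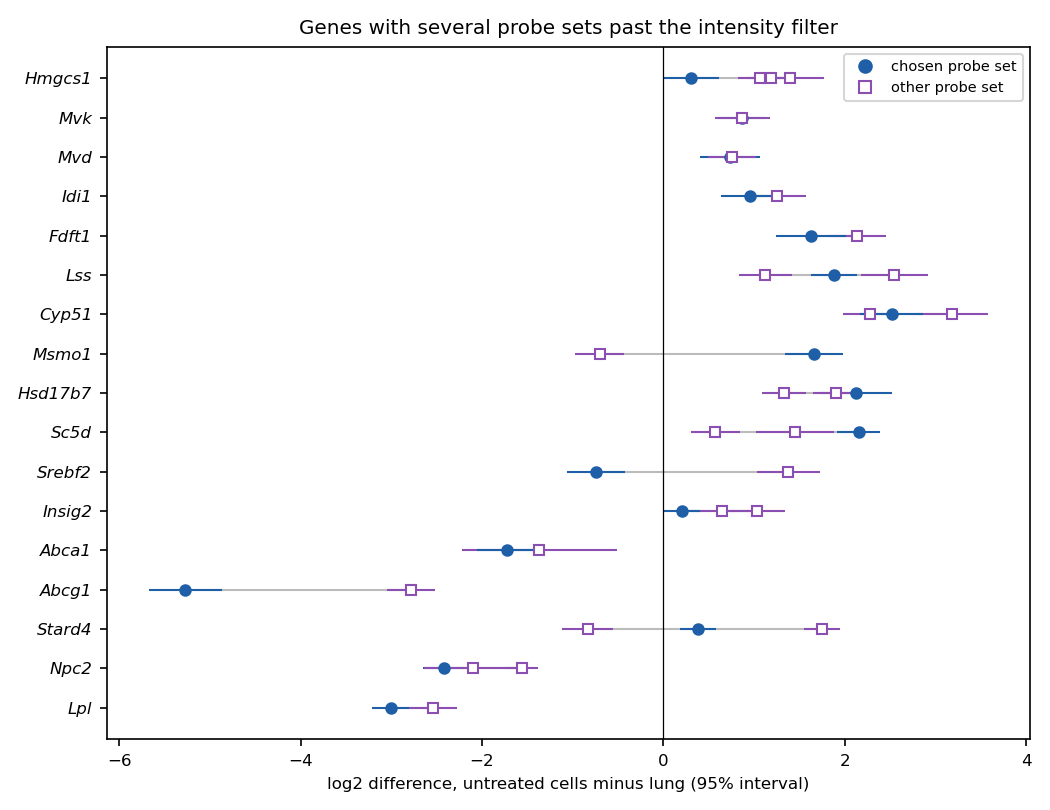
Log2 difference of untreated cells from lung (x axis, with 95% interval) for each probe set past the intensity filter, in genes with several (y axis). Blue points are the probe sets chosen and open squares the others. The points of Srebf2, Stard4 and Msmo1 lie on both sides of 0.

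The liver X receptor gene Nr1h3 and Mylip, whose product sends lipoprotein receptors for degradation, were both called lower. Nr1h3 read 406, 310 and 345 in untreated cells and 693 to 1084 with a median of 867 in lung, a log2 difference of -1.20 ± 0.10. Mylip read 147, 207 and 208 against 412 to 628 with a median of 505, a log2 difference of -1.17 ± 0.12. Neither group overlapped with lung.

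All 3 export genes were lower. Abca1 passes cholesterol to lipid-poor apolipoproteins. It read 277, 182 and 351 in untreated cells and 773 to 1287 with a median of 958 in lung, a log2 difference of -1.72 ± 0.16. With the mean of its probe sets the difference was -0.98 and the call was lost. Abcg1, which loads cholesterol onto high-density lipoprotein, read 17.2, 10.8 and 14.6 against 1029 to 1959 with a median of 1167. Its 3 untreated values lay below the 40th percentile of their arrays (24.6 to 25.8 on the cell arrays). Abcg1 thus entered this test through the lung arrays alone, where it was high, and its p-value is no support of its own. With no filter it was called lower too. Apolipoprotein E, Apoe, read 26.7, 41.7 and 42.5 against 2017 to 3146 with a median of 2630. The log2 differences were -5.27 ± 0.20 for Abcg1 and -5.49 ± 0.14 for Apoe (limma adjusted p = 1.38e-17 and 8.23e-21). At intensities this low the size depends on the offset. With offsets of 1 and 64 it was -6.16 and -4.02 for Abcg1, and -5.91 and -4.66 for Apoe.

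Of the trafficking and uptake genes, 3 of 4 were lower. Lipoprotein lipase, Lpl, read 377, 315 and 347 in untreated cells and 2364 to 3960 with a median of 3039 in lung, a log2 difference of -3.01 ± 0.10 (limma adjusted p = 1.6e-18). Npc2, which binds cholesterol in lysosomes, read 1591, 1541 and 1253 against 6304 to 10444 with a median of 6692, a log2 difference of -2.42 ± 0.11. Npc1, the membrane partner of Npc2, read 173, 141 and 124 against 400 to 587 with a median of 492, a log2 difference of -1.45 ± 0.14. All 3 groups were separate from lung. Stard4, a sterol carrier, went the other way by the probe set chosen. It read 421, 453 and 456 against 297 to 436 with a median of 369, a log2 difference of 0.38 ± 0.09, and the probe sets disagreed as given above.

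Markers of other cell types moved with these differences. The summed intensity of 6 measured alveolar macrophage markers was 125 to 175 in untreated cells and 5305 to 12591 in lung, and 4 of the 6 were above the 40th percentile of no untreated array. Marco was at most 0.00476 and Chil3 at most 2.06 on the untreated arrays. The summed intensity of 7 alveolar type 2 markers was 545 to 650 against 35725 to 53689, that of 6 endothelial markers 74.8 to 81.5 against 11539 to 22641, that of 5 adipose markers 60.1 to 102 against 311 to 1935, and that of 6 cardiac markers 318 to 515 against 1650 to 19769. The 4 dividing-cell markers summed to 7832 to 10645 in untreated cells and 200 to 940 in lung. Lung fibroblast markers summed to 2753 to 3174 in untreated cells and 11297 to 17739 in lung, although 1 of the 6, Col1a1, was higher in the cells (median 2064 against 895). The 2 measured blood markers summed to 10.0 to 13.9 and 1037 to 3051. The part of these cell types in the differences of the cholesterol genes was not tested. In whole lung, fewer cells of a type and less RNA per cell cannot be told apart.

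Other genes of lipid metabolism, from lists outside the 34, went in both directions. Of 52 tested, 9 were higher and 16 lower in untreated cells than in lung, where 17.8% of all genes were higher and 23.8% lower. The median log2 difference of the 52 was -0.19, against 0.01 over all genes. In fatty acid synthesis and desaturation 3 of 13 were higher, Elovl6 (log2 difference 1.70), Fads2 (1.62) and Acsl3 (1.33), and 4 were lower, among them Thrsp (-4.64), the stearoyl-CoA desaturase gene Scd1 (-1.54) and the fatty acid synthase gene Fasn (-1.46). In SREBP processing 2 of 7 were higher, the site-2 protease gene Mbtps2 (1.58) and Ube2g2 (1.07), and Fbxw7 (-1.51) was lower. In the isoprenoid branch 1 of 7 was higher, Pdss2 (1.13), and 1 lower, Ggps1 (-1.31). Among lipoprotein receptors and lysosomal lipid genes 1 of 13 was higher, the receptor gene Lrp8 (3.01), and 5 were lower, among them the fatty acid transporter gene Cd36 (-7.98), Scarb2 (-2.04) and Scarb1 (-1.69), a receptor for high-density lipoprotein. Among 12 tested genes of export and oxysterols 2 were higher, Abca7 (1.39) and Ch25h (1.07), and 5 were lower, among them Apoc1 (-3.80), Abca3 (-3.08) and Pltp (-2.41).

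Antibody-treated cells were set against the same 16 lung arrays, so the values below share their reference with those above and are no second support for them. Of the 31 genes 9 were called higher and 8 lower, with 17.2% of 15138 genes called higher and 23.9% lower. The 9 were synthesis genes, and the 17 synthesis genes had a median log2 difference of 1.25, with 16 positive where 49.7% of all genes were. On the normalized scale, in 14 of the 31 genes all treated arrays were above all lung arrays (30.1% of all genes) and in 8 below (33.2%). Cyp51 read 1250, 1283 and 1157, all above lung, with a log2 difference of 2.35 ± 0.17. Hsd17b7 had the highest difference here, 2.57 ± 0.19, with readings of 362, 282 and 472. Fdps read 2179, 1108 and 2618, Sqle 2131, 2203 and 2181, and Sc5d 1408, 1088 and 1224, all above lung. Fdft1 read 1287, 730 and 1527, and Lss 352, 370 and 455, also all above lung. Replicate 2 of the treated cells gave the lowest reading of Fdps, Fdft1 and Sc5d among the 6 cell arrays. Mvk, at 160, 109 and 210, reached into the raw lung range on that array, and Hmgcs1 and Idi1 are given below. Ebp (0.95 ± 0.12) and Insig1 (0.94 ± 0.13) lay just under the 2-fold line that they had passed in untreated cells. Insig1 read 1445, 1622 and 1295 and Scap 962, 981 and 1173, above lung on every treated array. Srebf2 read 282, 174 and 356 and Stard4 410, 318 and 442, and their probe sets disagreed here too.

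The 8 lower genes in antibody-treated cells were those lower in untreated cells. Abca1 lost this call with its probe sets averaged and with array weights, and Nr1h3 lost it with median centring. Apoe read 41.4, 30.7 and 16.8, a log2 difference from lung of -5.75 ± 0.14. Abcg1 read 37.7, 16.1 and 6.78, a log2 difference of -5.08 ± 0.20. Only replicate 1 was above the 40th percentile of its array, so Abcg1 again needed the lung arrays to enter the test. Lpl read 434, 403 and 330, a log2 difference of -2.85 ± 0.10, and Npc2 read 1602, 1163 and 1642, a log2 difference of -2.40 ± 0.11. These groups were all below lung, as were Abca1 (given below), Nr1h3 at 388, 296 and 427, Mylip at 189, 163 and 169, and Npc1 at 111, 246 and 125. The macrophage marker sum was 154 to 210 on these arrays.

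Treated and untreated cells were then compared directly, to see what changed in the sorted fraction after exposure to the antibody. No cholesterol gene passed the test. Of the 30 tested, none had an adjusted p below 0.05 and none an unadjusted p below 0.05, and Abcg1 was under the intensity filter. Over all 12711 genes 3 passed, all lower (0.0236%), and 94 (0.74%) had an unadjusted p below 0.05 (limma). The smallest unadjusted p of the 30 was 0.105, for Hsd17b7, and every adjusted p rounded to 1.00. With array weights 5 of the 30 had an unadjusted p below 0.05 (Abca1, Hmgcs1, Idi1, Lpl and Scap), as had 16.3% of all genes, and none passed after adjustment. With 3 arrays a side, a missing call does not show that the levels were equal. For 29 of the 30 genes the 95% interval lay within 2-fold in both directions. The exception was Hsd17b7, with limits of -0.12 and 1.02.

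The sign of the differences was mostly negative and rested in part on 1 array. Of the 30 genes 24 had lower means in antibody-treated cells, and so had 16 of the 17 synthesis genes, while 43.7% of all genes had a positive difference. The median log2 difference of the synthesis genes was -0.13 against -0.02 for all genes. Antibody replicate 2 was the lowest of the 6 cell arrays for 12 of the 17 synthesis genes. Without it the median was -0.03 and 6 of the 17 differences were positive. On that array the dividing-cell markers summed to 4943, against 7832 to 11594 on the other 5 cell arrays. Its 3′ over 5′ signal of Gapdh on the log2 scale was 0.40, against -0.13 to 0.07 on the other 5. The part of either in the synthesis genes was not tested.

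The 5 genes with the smallest p show how the arrays overlapped. Hsd17b7 read 171, 346 and 279 untreated and 362, 282 and 472 treated, a log2 difference of 0.45 ± 0.25, and was the only synthesis gene with a higher treated mean. The other 2 Hsd17b7 probe sets gave -0.07 and 0.03, so the higher mean rests on the one chosen. Idi1 read 1104, 1318 and 1565 against 1093, 979 and 1220, a log2 difference of -0.23 ± 0.16. Abca1 read 277, 182 and 351 against 488, 302 and 251, a log2 difference of 0.32 ± 0.27. In these 3 genes the groups overlapped. Hmgcs1 read 1670, 1745 and 1953 against 1482, 1387 and 1863, a log2 difference of -0.17 ± 0.14, also with overlap. Sqle read 2460, 2283 and 2476 against 2131, 2203 and 2181, a log2 difference of -0.12 ± 0.10. The Sqle groups did not overlap, as for 1.68% of all genes in that direction.

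**Figure D4:**
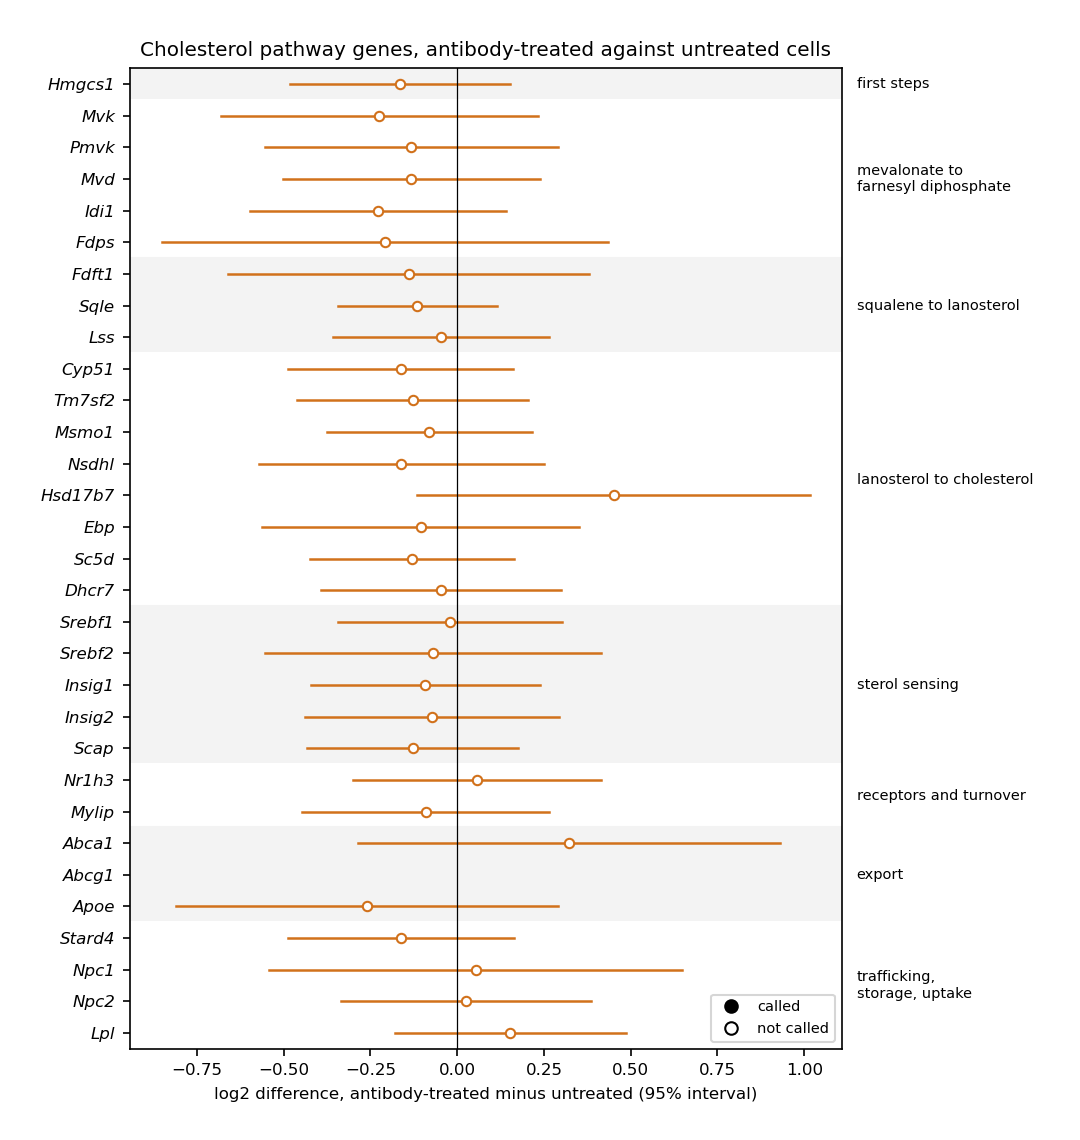
Log2 difference of antibody-treated from untreated cells (x axis, with 95% interval) for the 30 cholesterol genes tested, grouped by role. Open points were not called. Every interval includes 0, and 24 of the 30 points lie to the left of it.

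Lung samples differed among themselves in the synthesis genes. The SD of their normalized log2 values over the 16 lung arrays had a median of 0.28, against 0.20 for all genes tested, and ranged from 0.14 to 0.61. Male 4 was the highest lung array for 11 of the 17 synthesis genes on the normalized scale and for 7 in raw intensity. Its median log2 deviation from the lung mean was 0.39, and male 3 was above the mean for 15. Male 2 was the lowest for 5 on the normalized scale and for 9 in raw intensity. Male 8 was the lowest for 4 on the normalized scale and for 0 in raw intensity. Female 3 was the lowest for 4 on either scale and was below the mean for 16 of the 17. The Gapdh 3′ to 5′ log2 ratio was 0.81 on male 2, the highest of the male-labelled arrays, and 0.68 on female 3, second among the female-labelled. Female 2 had the highest ratio of all arrays, 1.02, with a median log2 deviation of the synthesis genes of -0.14. Male 8 had a ratio of 0.68 with a median deviation of -0.08, and female 7 had 0.66 with 0.17. Male 2 also had the lowest mean intensity of all arrays, 270.1. Dividing-cell markers summed to 732 on male 3 and 940 on male 4, against 200 to 664 on the other lung arrays. Alveolar type 2 markers summed to 52339 and 53689 on these arrays, against 35725 to 47058 on the others. The part of these values in the synthesis genes was not tested. Male 3 and male 4 also gave the 2 highest readings of Abcg1 (1884 and 1959) and Npc2 (10444 and 10236), and their macrophage markers summed to 12591 and 12352, against 5305 to 9380 on the others. Male 3 had the lowest cardiac marker sum, 1650, and male 4 the lowest endothelial sum, 11539. Without both arrays lung Abcg1 was 1171 ± 127 (SD, n = 14) in place of 1265 ± 283 (SD, n = 16), and Npc2 was 6971 ± 833 (SD, n = 14) in place of 7392 ± 1388 (SD, n = 16).

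Female-labelled and male-labelled lung did not differ in any cholesterol gene past the threshold. None of the 31 passed (0.0486% of 14392 genes did), and 3 had an unadjusted p below 0.05 where 10.6% of all genes did (limma). These were Lpl (log2 difference, female minus male, -0.27 ± 0.08, adjusted p = 0.21), Tm7sf2 (-0.43 ± 0.16, adjusted p = 0.354) and Srebf2 (0.26 ± 0.11, adjusted p = 0.433). Without male 3 and male 4 again none passed, and 4 had an unadjusted p below 0.05 (limma: Idi1, Lpl, Sqle and Srebf2), as had 10.6% of all genes. With all arrays in, 10 of 17 synthesis genes and 50.4% of all genes had a higher female mean. Without both arrays 16 of 17 synthesis genes had, and no share of all genes is given for that fit. Its median log2 difference was 0.15 for the synthesis genes and 0.0038 for all genes.

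**Figure D5:**
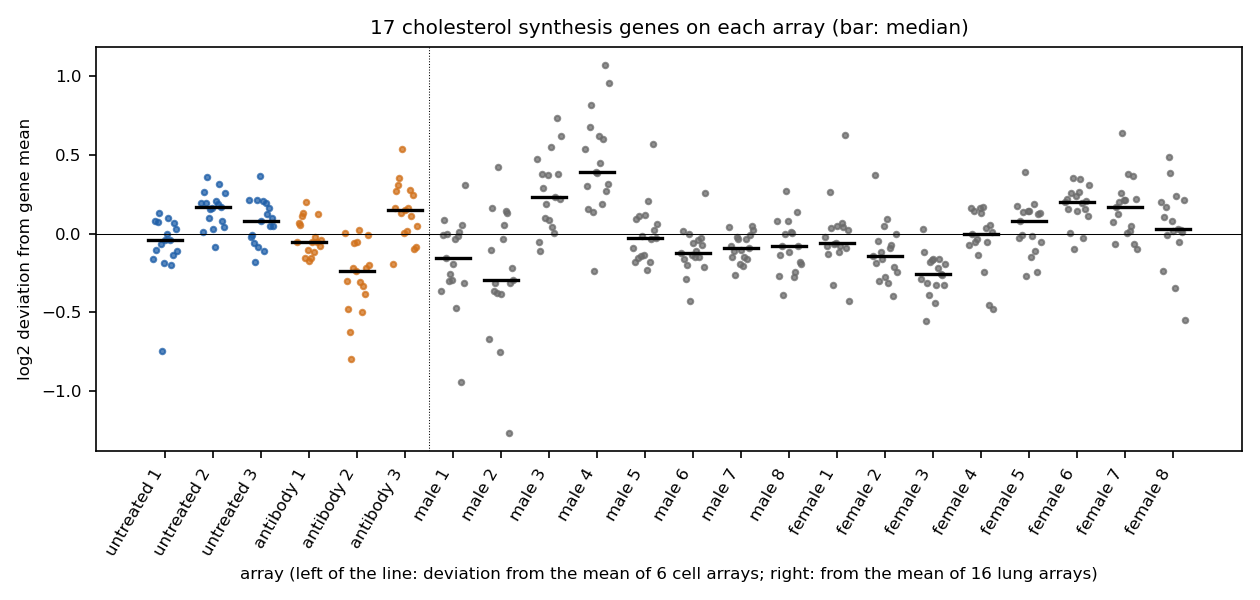
Log2 deviation of each of the 17 synthesis genes (points) on each array, from the mean of the 6 cell arrays (left of the line) or of the 16 lung arrays (right), with a bar at the median. The bars of antibody 2 (-0.24), male 2 (-0.30) and female 3 (-0.26) lie low and that of male 4 (0.39) lies high.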

How the data were processed

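The deposited values are probe set intensities on a linear scale, summarized by the authors with PLIER, per the submitters' processing notes; its version and settings, and whether arrays were scaled, are not given in the sources used here. Of 45101 probe sets, 64 controls were left out, and the supplied annotation gave 1 symbol for 34945 of the rest, several for 932 and none for 9160. Each gene took its brightest probe set by mean over 22 arrays, passing over the cross-hybridizing type where another existed. Values were transformed as log2(intensity + 16) and quantile normalized. Genes entered a test when at least 3 of the compared arrays had them above that array's 40th percentile. Models were fitted over all genes with limma 3.58.1 (R 4.3.3), with a variance trend, two-sided tests and Benjamini-Hochberg adjustment. Cells against lung used all 4 groups, with lung as the mean of its male and female means; the antibody comparison used the 6 cell arrays, and the sexes the 16 lung arrays. P-values measure spread between these samples, and for the cells that is spread within 1 line. No read depth applies to arrays, whose number limits the precision.

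No measured value entered the list of 34 genes. That list, the other lists and the tests were chosen with earlier results of these data known. All 34 genes are named. Values on every array are given for up to 3 genes per role with the largest difference of untreated cells from lung, for genes opposite in sign to their role, and for the 5 with the smallest p in the antibody comparison. Genes of the other lists are named by the largest difference among those called. Promoters were read with Python 3.11.15 and pandas 2.3.3; the rule set for printing them (sterol element and called higher) was met by none. The fitting code was checked on data with known answers. Alternatives covered normalization, offset, filter, probe set choice, model, array weights, replicate block and left-out arrays.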

Additional observations from a re-analysis of the deposited data

Results flagged for a closer look

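Of 62 groups of 8 lung arrays (31 genes in each sex), 5 had an array whose gap to the next one exceeded the 95% limit of Dixon's test for 8 arrays, and chance flags about 1 group in 20. Female 3 was the lowest for Fdft1, at 255 against 393 to 476 on the other 7 female-labelled arrays, for Sqle, at 429 against 561 to 659, and for Nsdhl, at 301 against 344 to 375. Male 2 was the lowest for Sc5d, at 200 (199.7) against 306 to 385 on the other male-labelled arrays. Female 1 was the highest for Npc2, at 9594 against 6477 to 7451. The 4 low readings are all of synthesis enzymes, which share samples and are not independent of each other.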

How the results depend on the processing

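For cells against lung, the counts of genes called kept within 1.5 times under other normalizations, offsets, filters, probe set rules, models and array weights, and without male 3 and male 4, but not without the 2-fold requirement. That gave 18 higher genes in untreated and 18 in antibody-treated cells, 14 of the latter in synthesis. The median log2 difference of the 31 genes was 0.47 in untreated and 0.34 in antibody-treated cells. It was 0.75 and 0.61 with median centring, and 0.63 and 0.58 with probe sets averaged per gene. The median of all genes, 0.01 for untreated cells, was -0.15 without normalization and 0.12 with median centring.

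Without 1 cell array at a time, 10 to 12 genes were higher and 8 lower in untreated cells (synthesis 9 to 11, median 0.40 to 0.54), and 9 to 10 higher and 8 to 9 lower in antibody-treated cells (synthesis 9 to 10, median 0.27 to 0.39). In the antibody comparison none was called, with medians of -0.15 to -0.03; 1 gene had an unadjusted p below 0.05 without untreated replicate 1 (Idi1), untreated replicate 2 (Hsd17b7) or antibody replicate 3 (Mvk).

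Some single genes changed sign. Dhcr7 was -0.24 (untreated) and -0.27 (antibody-treated) without normalization. Pmvk was -0.056 in untreated cells without normalization and 0.077 in antibody-treated cells with median centring. Srebf2 was 0.32 and 0.29 with the mean of its probe sets. Npc2 in the antibody comparison was -0.0021 without normalization. The cause was not tested.

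Same-numbered untreated and treated arrays did not deviate together (r = 0.07, -0.26 and 0.07), so the numbers were not taken as pairs. With the replicate number as a block, 11 genes were higher and 8 lower in untreated cells (Idi1 gained a call and Insig1 lost it), 9 and 8 in antibody-treated cells, and none passed in the antibody comparison, where 2 of all genes did in place of 3.

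Counts over all genes also moved with the processing. They cover far more genes, so their movement is not compared with that of the cholesterol genes. Between the sexes 3 genes were higher and 4 lower, but 40 and 39 with array weights, and 15 and 30 without male 3 and male 4. In the antibody comparison 3 genes passed, and 0 without untreated replicate 3. Testing every probe set gave 6554 higher and 6390 lower of 32533 features in untreated cells against lung, where the main fit tested 15197 genes. There each cholesterol gene was still counted by its chosen probe set. Dropping the 2-fold requirement gave 6226 higher and 6204 lower genes.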
